A study of Mus musculus with 9 samples.

Results

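A set of 8 long noncoding RNA genes was followed in mouse lung macrophages after inhaled ozone. They are Malat1 and Neat1, the abundant nuclear RNAs, and 6 host genes of small nucleolar RNAs (snoRNAs), Gas5, Snhg1, Snhg6, Snhg8, Snhg12 and Epb41l4aos. The genes were chosen by name, and all 8 were found among the 54281 gene identifiers deposited. These genes and the lists set beside them below were chosen with earlier results of these data known. All 8 also passed the filter on low counts and were among the 15713 genes tested. The animals were female wild type mice aged 12 weeks of a strain that the labels do not name. Groups were mice killed 72 h after ozone (0.8 ppm for 3 h), mice killed 24 h after the same exposure, and mice that breathed air, with 3 libraries of total RNA in each. Cells came from lavage of the airways combined with massage of the lung, so a library represents whatever cells were washed out and not a sorted population.

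Malat1 and Neat1 are unspliced or little spliced transcripts that stay in the nucleus. Malat1 gathers at nuclear speckles, the stores of splicing factors, whereas Neat1 is the scaffold on which paraspeckles are built around proteins such as NONO and SFPQ. SnoRNA host genes work differently: their introns are trimmed into snoRNAs, which guide chemical modification of ribosomal RNA, and the spliced exons are exported and, for Gas5 and several others, degraded by nonsense-mediated decay when they are translated. Several of these hosts, Gas5 the best known, begin with a terminal oligopyrimidine tract, the start shared by genes for ribosomal proteins and translation factors.

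Malat1 and Neat1 lie beside each other on the minus strand of chromosome 19 (GRCm38, GENCODE M21), at chr19:5795690-5802672 and chr19:5824708-5845478. Their gene identifiers are ENSMUSG00000092341.3 for Malat1 and ENSMUSG00000092274.3 for Neat1. The annotated exons cover 6.983 kb of Malat1 and 20.771 kb of Neat1, in each case the whole span of the gene, and the Neat1 count therefore adds its short and long isoforms. Gas5 (ENSMUSG00000053332.13, chr1:161034422-161038539, plus strand) carries 10 annotated snoRNA genes. Snhg1 (ENSMUSG00000108414.1, chr19:8723475-8726443, plus strand) carries 8, and Snhg12 (ENSMUSG00000086290.9, chr4:132308623-132311024, plus strand) carries 5. A single snoRNA gene lies in each of Snhg6 (ENSMUSG00000098234.7, chr1:9941959-9944118, minus strand) and Snhg8 (ENSMUSG00000104960.1, chr3:123507552-123508404, minus strand), and in Epb41l4aos.

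Start regions were available for 5 of the 8 genes in the RefSeq promoter table (GRCm38.p6), namely Malat1, Gas5, Snhg1, Snhg8 and Snhg12. They are shown because the first bases distinguish oligopyrimidine starts from others. Each line runs 5′ to 3′ from 40 bases before the annotated start to 50 bases from the start on, and the capitals mark the run of C or T that begins at the annotated start, or the start base where that run is a single base or absent. The positions are chr1:161035126-161035215 for the second annotated start of Gas5, chr3:123508287-123508376 for Snhg8, chr4:132308638-132308727 for Snhg12, chr19:8723447-8723536 for Snhg1 and chr19:5802623-5802712 for Malat1.
Gas5: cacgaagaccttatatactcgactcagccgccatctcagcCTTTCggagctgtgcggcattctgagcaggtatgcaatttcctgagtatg
Snhg8: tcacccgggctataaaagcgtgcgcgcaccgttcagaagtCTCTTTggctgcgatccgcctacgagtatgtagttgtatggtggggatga
Snhg12: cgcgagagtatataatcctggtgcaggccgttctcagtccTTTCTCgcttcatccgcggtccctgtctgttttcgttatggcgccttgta
Snhg1: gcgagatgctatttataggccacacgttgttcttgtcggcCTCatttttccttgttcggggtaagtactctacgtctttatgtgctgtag
Malat1: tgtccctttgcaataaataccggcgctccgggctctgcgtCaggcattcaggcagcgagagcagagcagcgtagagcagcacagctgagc
A start with C followed by at least 4 bases of C or T was found for Gas5 and Snhg8, and it occurs in 2.51% of the 32851 promoters in the table. Snhg12 has a run of 6 such bases that begins with T, and Snhg1 has a run of 3. The other annotated start of Gas5 begins with G. The letters TGACGTCA, the cyclic AMP response element, were found 46 bases before the second start of Gas5, where they begin just ahead of the stretch printed, and in 1.79% of all promoters of the same length (300 bases, both strands read). CACGTG, the E-box (7.15% of promoters), and CCGGAAG, an ETS motif (8.86%), were in none of the windows of these genes.

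Library totals lay between 47095543 and 60248305 estimated counts. The 10 alveolar macrophage markers summed to 21356 to 25076 CPM (counts scaled to a common library size) at 72 h, 18400 to 25995 CPM at 24 h and 26925 to 29520 CPM in air, so all 6 ozone libraries lay below the air libraries. The 6 lung epithelium markers summed to 50.9 to 68.5 CPM at 72 h, 38.04 to 44.7 CPM at 24 h and 30.7 to 38.08 CPM in air, and the 72 h libraries lay above all others. The part of either in the results was not tested. Replicate 1 of the 72 h group and replicate 2 of the 24 h group stood apart, with the 5 B cell markers at 648 CPM in that 72 h library and 1238 CPM in that 24 h library. The other 7 had 1.60 to 7.93 CPM of these markers. Serous cavity macrophage markers summed to 737 CPM in that 72 h library and 564 CPM in that 24 h library, against 3.48 to 6.02 CPM elsewhere. The same 72 h and 24 h libraries were also highest for T cell markers (37.5 and 253 CPM), erythroid markers (2504 and 2906 CPM), neutrophil markers (54.7 and 78.9 CPM) and the share of mitochondrially encoded counts (6.18% and 5.25%, against 2.71% to 3.07% in the other 7). Replicate 1 of the 24 h group had 855 CPM of erythroid markers, and the remaining 6 libraries had 12.2 to 143 CPM. Air replicate 2 had 2.42 CPM of Xist, the RNA of the inactive X chromosome, while the other 8 libraries had 887 to 1482 CPM, which goes against the female label of that library. Values of the 8 genes are also given without these libraries where that changes a call or a direction, and counts of other gene lists where it changes them by more than 1.5 times. In such mixtures, fewer cells of a type and less RNA per cell cannot be told apart.

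Neat1 was the one gene of the 8 with a change called by edgeR: it was higher 72 h after ozone than 24 h after it. The 3 libraries at 72 h had 1268, 1239 and 1170.1 CPM, the 3 libraries at 24 h had 689, 656 and 889 CPM, and the air libraries had 1167, 1054 and 1007 CPM. Every 72 h library lay above every air library, as was the case for 17.5% of all genes, and every 24 h library lay below every air library, as for 9.06%. Neat1 was 1.65-fold higher at 72 h than at 24 h, a log2 difference of 0.72 ± 0.12 (SE, n = 3 each; edgeR adjusted p = 0.00882). At 24 h relative to air the difference was -0.53 ± 0.12 (edgeR adjusted p = 0.129), and at 72 h relative to air it was 0.19 ± 0.12 (edgeR adjusted p = 0.356), so neither passed the threshold of 0.05. DESeq2 called the 24 h difference as well, with a log2 change of -0.53 and an adjusted p of 0.00117, in a comparison where DESeq2 called 582 genes (399 higher, 183 lower) and edgeR called 1. Lung epithelium markers, erythroid markers and alveolar macrophage markers also differed between these libraries, and their part in the Neat1 difference was not tested.

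Between the 2 times after ozone, 18.2% of all tested genes were called, 5.39% higher at 72 h and 12.8% lower. Among the 1976 tested long noncoding genes, 10.2% were called higher and 0.911% lower, and their median log2 difference was 0.35, against -0.056 for 12846 protein-coding genes. Neat1 was one of the 202 long noncoding genes called higher. Libraries at 72 h lay above all those at 24 h, without overlap, for 15.0% of all genes. The Neat1 call held without the pair of libraries that stood apart (log2 difference 0.63, edgeR adjusted p = 0.0189) and without those and air replicate 2 (0.62, adjusted p = 0.0356). It was lost without 72 h replicate 2, where the log2 difference was 0.70 and the adjusted p was 0.0545.

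**Figure D1:**
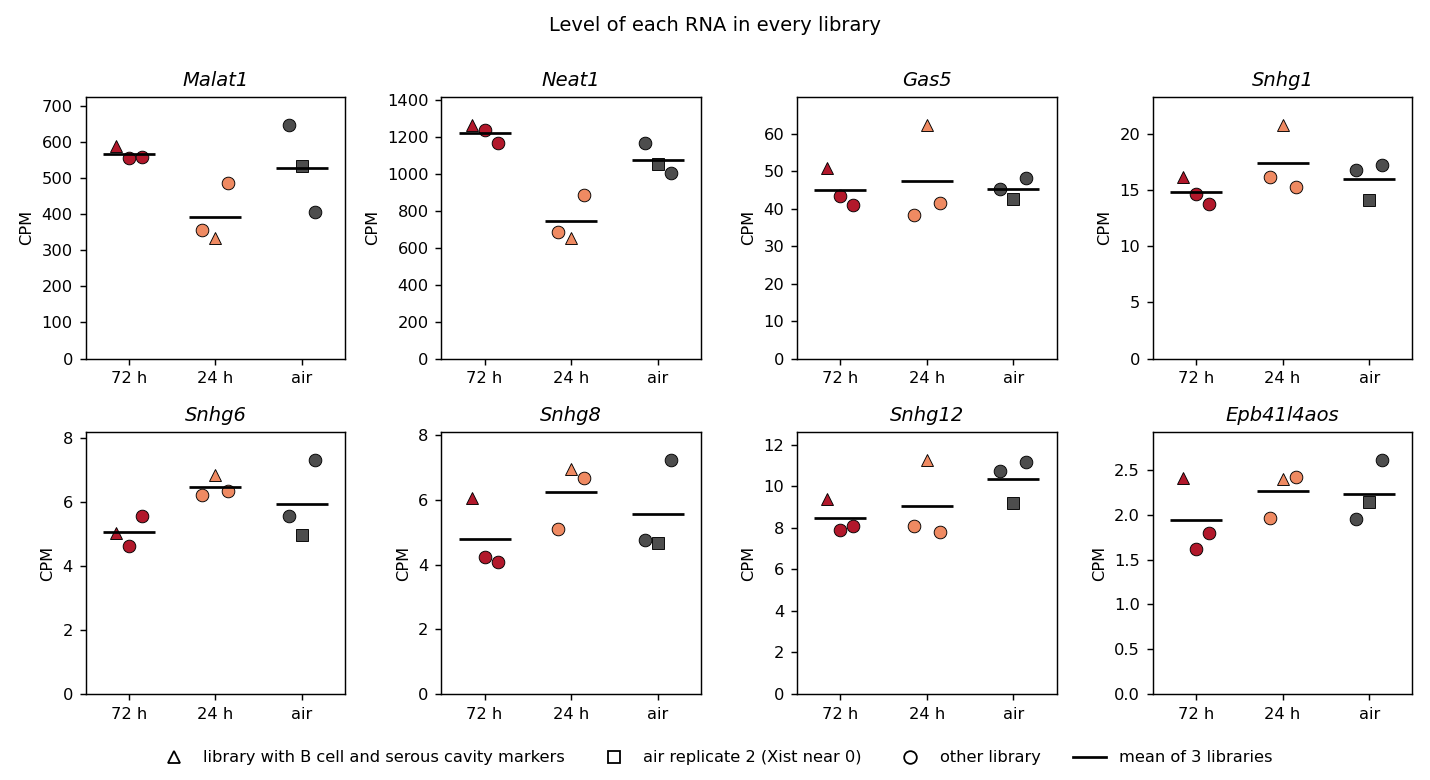
Level in CPM of each of the 8 RNAs in every library, 72 h left, 24 h in the middle and air right; each point is a library, the line is the mean of 3, triangles are the libraries with B cell and serous cavity markers and the square is air replicate 2. The 3 Neat1 libraries at 24 h lie between 656 and 889 CPM, below all 6 others.

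Malat1 had the same order of group means with a wider spread, and none of its comparisons passed the threshold in the edgeR fit of all 9 libraries. It measured 589, 556 and 560.1 CPM at 72 h, 357, 335 and 486 CPM at 24 h, and 649, 535 and 405 CPM in air. The 72 h libraries lay above all 24 h libraries, and the 24 h libraries overlapped with air. The log2 difference between 72 h and 24 h was 0.53 ± 0.19 (edgeR adjusted p = 0.0808), and without 24 h replicate 3 it was 0.73 with an adjusted p of 0.0470. DESeq2 called it at an adjusted p of 0.0166, with 3564 genes called in all (1184 higher, 2380 lower). At 24 h relative to air the difference was -0.43 ± 0.19 (edgeR adjusted p = 0.335), and at 72 h relative to air it was 0.10 ± 0.18 (edgeR adjusted p = 0.756).

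Within a library the ratio of Neat1 to Malat1 counts needs no scaling. It averaged 2.16 ± 0.069 at 72 h, 1.90 ± 0.067 at 24 h and 2.09 ± 0.356 in air (SD, n = 3 each). The lowest 72 h library had a ratio of 2.09 and the highest 24 h library one of 1.96, while air spanned 1.80 to 2.48 and covered both. The sum of the pair was 1794 ± 63.6 CPM at 72 h, 1138 ± 208 CPM at 24 h and 1606 ± 202 CPM in air. Set against Gas5 in the same library, Neat1 had 27.4 ± 2.11 counts per Gas5 count at 72 h, 16.7 ± 5.61 at 24 h and 23.8 ± 2.57 in air. The 24 h mean includes 10.5 in replicate 2, a library that stood apart and had the highest Gas5 level. The ratio of 24 h replicate 3, 21.5, lay above the 20.9 of air replicate 3. All 72 h libraries lay above all 24 h libraries in this ratio, and both groups overlapped with air.

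By CPM, which takes no account of gene length, Neat1 and Malat1 were among the most abundant RNAs of these cells. The hosts were of moderate or low level. By mean CPM Neat1 ranked 83rd and Malat1 256th among the 15713 tested genes, and they were 2nd and 6th among the long noncoding genes. Neat1 took 0.0668% to 0.129% of the counts of a library and Malat1 0.0341% to 0.0636%. Per kilobase of annotated exon the order of the pair was the other way round, since the Neat1 gene is longer. The Neat1 count adds short and long isoforms but was divided by the whole 20.771 kb, so this order depends on that length. On that scale Malat1 stood at 81.4 ± 2.56 CPM per kb at 72 h, 56.3 ± 11.7 at 24 h and 75.8 ± 17.4 in air. Neat1 stood at 59.0 ± 2.43 CPM per kb at 72 h, 35.8 ± 6.08 at 24 h and 51.8 ± 3.97 in air. Ranked by mean CPM per kb, Malat1 was 645th and Neat1 941st among the 15713 tested genes. Among the long noncoding genes they were 6th and 13th on that scale.

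Gas5, the most abundant of the hosts, came next with 12.0 ± 1.38 CPM per kb at 72 h, 12.6 ± 3.48 at 24 h and 12.0 ± 0.753 in air. The other 5 hosts lay between 3.52 and 5.62 CPM per kb at 72 h, between 3.76 and 7.32 at 24 h and between 4.32 and 6.51 in air. Snhg8 stood highest among these 5 and Snhg12 lowest, with Snhg8 above Snhg1 by less than 1 SD of Snhg8 at 72 h and in air, and the neighbours Snhg1, Epb41l4aos and Snhg6 were within 1 SD of each other in air. The exon models of Snhg1, Snhg8 and Snhg12 merge into a single block that includes the introns of the spliced form, and the 3 blocks of Gas5 cover most of its span, which lowers the level of these 4 genes per kilobase.

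**Figure D2:**
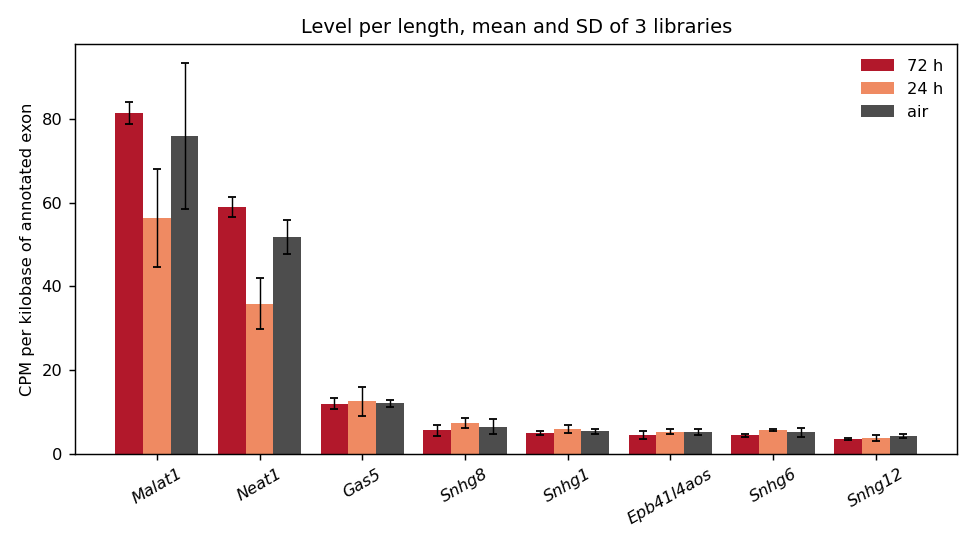
Level per kilobase of annotated exon, in CPM per kb, as group means with the SD of 3 libraries, for 72 h, 24 h and air. Malat1 is the highest in each group at 56.3 to 81.4 CPM per kb, and the 5 hosts right of Gas5 lie below 7.5. Neat1 is divided by its whole annotated length, although its count adds short and long isoforms.

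None of the 6 snoRNA hosts had a called change in any edgeR or DESeq2 comparison. At an unadjusted p under 0.05 edgeR counted 1 of them, Snhg6, at 72 h relative to 24 h, and 0 in both comparisons with air. Of all genes tested, 33.3% were under that p at 72 h relative to 24 h, 25.3% at 72 h relative to air and 14.7% at 24 h relative to air. Gas5, whose spliced RNA is a classic substrate of nonsense-mediated decay, measured 50.8, 43.3 and 40.9 CPM at 72 h, 38.3, 62.4 and 41.4 CPM at 24 h, and 45.3, 42.5 and 48.1 CPM in air. The 24 h libraries spanned both other groups, and the highest value was in 24 h replicate 2, the library with the most B cell markers. The log2 difference between 72 h and 24 h was -0.073 ± 0.18 (edgeR adjusted p = 0.823), and without the pair of libraries that stood apart it was 0.10. The part of other cells in the Gas5 level was not tested. The counting error of its lowest count, 1915, is 2.29%, which is smaller than the spread between libraries.

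Snhg1, known as the host gene of the snoRNA U22, had 16.1, 14.6 and 13.7 CPM at 72 h, 16.2, 20.8 and 15.3 CPM at 24 h, and 16.7, 14.1 and 17.2 CPM in air. All 3 groups overlapped, and the 20.8 CPM again belonged to 24 h replicate 2. Snhg12 had 9.38, 7.89 and 8.09 CPM at 72 h, 8.09, 11.3 and 7.78 CPM at 24 h, and 10.7, 9.19 and 11.2 CPM in air. Its log2 difference at 72 h relative to air was -0.29 ± 0.16 (edgeR adjusted p = 0.273), the largest of the 6 hosts in that comparison.

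Snhg6 was the host whose 72 h and 24 h libraries did not overlap. It measured 5.02, 4.62 and 5.57 CPM at 72 h, 6.23, 6.84 and 6.34 CPM at 24 h, and 5.55, 4.97 and 7.30 CPM in air. Every 72 h library lay below every 24 h library, which was the case for 22.7% of all genes, and the log2 difference of -0.35 ± 0.15 had an edgeR adjusted p of 0.148. Snhg8, host of the H/ACA snoRNA Snora24, had 6.05, 4.23 and 4.10 CPM at 72 h, 5.10, 6.95 and 6.68 CPM at 24 h, and 4.77, 4.67 and 7.24 CPM in air. Epb41l4aos (ENSMUSG00000087590.2, chr18:33794892-33795986, plus strand), an RNA transcribed next to the Epb41l4a gene and the least abundant at 88 to 157 counts in a library, had 2.41, 1.62 and 1.79 CPM at 72 h, 1.96, 2.40 and 2.42 CPM at 24 h, and 1.95, 2.15 and 2.61 CPM in air. For both genes all 3 groups overlapped.

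At 72 h relative to 24 h the log2 difference was below 0 for all 6 hosts, with a range of -0.38 to -0.073 and edgeR adjusted p from 0.148 to 0.823. Without 24 h replicate 2, Gas5 and Snhg12 stood above 0, at 0.19 and 0.11. At 72 h relative to air all 6 were again below 0 (-0.29 to -0.0092), and at 24 h relative to air 5 were above 0 and Snhg12 was below (-0.20 to 0.17). None of these values against air passed the threshold. Summed over the 6 hosts the level was 80.1 ± 8.47 CPM at 72 h, 88.8 ± 19.0 CPM at 24 h and 85.4 ± 8.11 CPM in air (SD, n = 3 each), and the groups overlapped.

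Relative to air, no gene of the 8 was called by edgeR at either time. At 24 h this stands beside a background of 0.00636%, that is 1 gene called in all, and at 72 h beside 5.47% (1.71% higher and 3.77% lower). At an unadjusted p under 0.05, edgeR counted 2 of the 8 at 24 h, Malat1 and Neat1, and 0 at 72 h, where 14.7% of all genes at 24 h and 25.3% at 72 h were under it. DESeq2 called 1 of the 8 at 24 h, Neat1, and 0 at 72 h, where it called 582 genes at 24 h and 1889 at 72 h in all. The comparisons with air share the air libraries, and the 3 comparisons rest on the same 9 libraries. A joint test over the 3 groups called Neat1 alone among the 8 (edgeR adjusted p = 0.0195), where 13.2% of all genes were called.

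**Figure D3:**
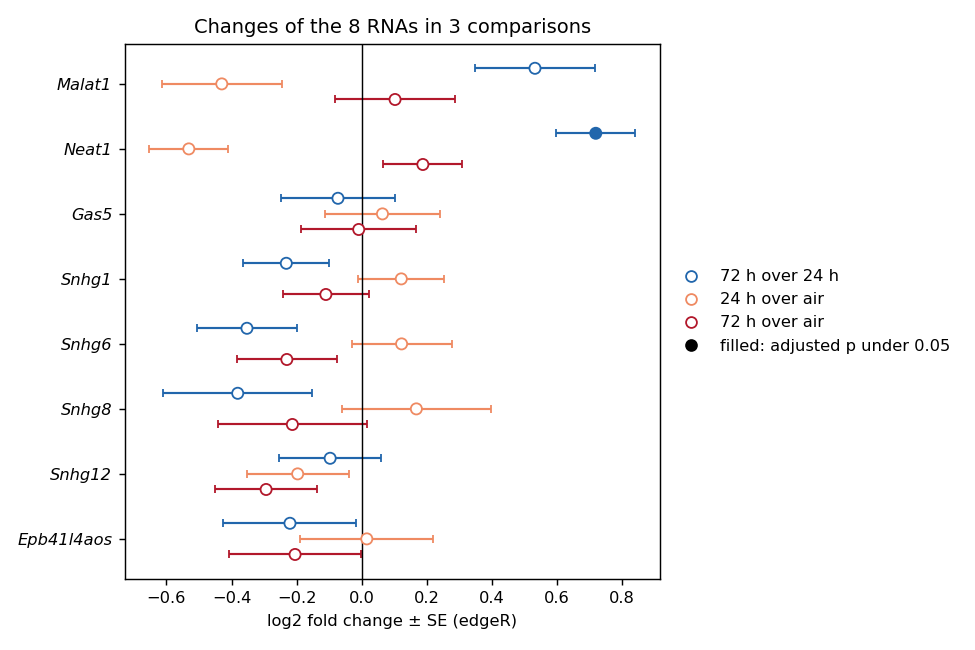
Log2 fold change with its SE for each RNA, from the edgeR fit, in the comparisons of 72 h with 24 h, 24 h with air and 72 h with air. Neat1 at 0.72 and Malat1 at 0.53 lie right of 0 for 72 h against 24 h and all 6 hosts lie left of it, between -0.38 and -0.073.

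The snoRNAs inside the hosts were hardly counted. Of 26 annotated snoRNA genes in the 6 hosts, 18 had no count in any library and the highest count in any library was 15.6. Snord80 and Snora16a are each annotated under a pair of identifiers. All 26 together had 156 counts over the 9 libraries, against 39714 counts of their hosts (0.392%), and none passed the filter on low counts. A count of 0 allows up to 3 counts, which is 0.0637 CPM in the smallest library, and this covers counting error only. Reads from a snoRNA that also match a host transcript may have been credited to the host, which was not tested. How well these libraries captured RNAs as short as snoRNAs was not tested either, so the counts are not read as snoRNA levels. A snoRNA from each of 3 hosts is shown, from the GENCODE M21 transcripts, 5′ to 3′. Capitals mark box C (TGATGA) and box D (CTGA) of the box C/D snoRNAs, and the ACA box close to the 3′ end of Snora24. Snord47 lies in Gas5 at chr1:161038082-161038158, plus strand, Snord87 in Snhg6 at chr1:9942463-9942549, minus strand, and Snora24 in Snhg8 at chr3:123507937-123508066, minus strand.
Snord47: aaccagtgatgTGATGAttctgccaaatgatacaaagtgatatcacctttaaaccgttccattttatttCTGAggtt
Snord87: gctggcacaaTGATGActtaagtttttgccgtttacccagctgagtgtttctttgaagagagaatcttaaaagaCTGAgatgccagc
Snora24: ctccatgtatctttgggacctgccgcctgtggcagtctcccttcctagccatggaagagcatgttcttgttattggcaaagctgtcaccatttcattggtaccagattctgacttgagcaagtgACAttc
Snord47 and Snora24 had 0 counts in all 9 libraries, and Snord87 had 13 in all.

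Genes that overlap these 8 were measured too. Gm28006, a short RNA annotated at the 5′ end of Neat1 (chr19:5844916-5845037) and named here after its values were seen, had 4.26, 4.40 and 3.89 CPM at 72 h, 2.34, 1.90 and 3.48 CPM at 24 h, and 3.43, 3.48 and 3.71 CPM in air. Its log2 difference between 72 h and 24 h was 0.70 ± 0.21 with an edgeR adjusted p of 0.0502. Zbtb37, a zinc finger gene on the opposite strand that overlaps the 5′ end of Gas5, was higher at 72 h, at 53.1 ± 2.20 CPM against 34.7 ± 4.18 CPM at 24 h (log2 difference 0.61 ± 0.12, edgeR adjusted p = 0.0119). Gm28006 lies on the same strand as Neat1 and within its exon, so no strand setting could tell their reads apart. Its values are therefore not a measure separate from Neat1. For genes on opposite strands, as Zbtb37 and Gas5, no source names the strand setting of the counting. Without it, reads of their overlap could not be told apart.

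Profiles were compared over the 9 libraries with 9554 genes averaging at least 5 CPM, leaving out genes with clone-type symbols such as Gm numbers. Long noncoding genes with such symbols were therefore not compared. Most like Neat1 were Firre, Kcnq1ot1 and Ubn2. Their root mean square difference to Neat1 on the centred log2 scale was 0.094, 0.107 and 0.111, against 0.335 for the variation of Neat1 itself. Firre, a nuclear long noncoding RNA from the X chromosome, had 91.7, 101 and 88.3 CPM at 72 h, 54.9, 45.8 and 76.5 CPM at 24 h, and 85.7, 74.9 and 74.1 CPM in air. Kcnq1ot1, the long antisense RNA of an imprinted cluster, had 17.3, 19.9 and 17.7 CPM at 72 h, 12.0, 9.70 and 13.3 CPM at 24 h, and 17.7, 15.5 and 13.5 CPM in air. In both, the 24 h libraries were the low ones, except for overlap with air in one library of Firre. Nearest to Malat1 were Trim6, Map3k8 and Fam13b (0.104, 0.108 and 0.117), and nearest to Gas5 were Zfp740, Abhd17b and Ccdc28b (0.057, 0.073 and 0.074). These distances share library, scaling and depth, and they are given as a description.

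Among the 1976 long noncoding genes tested, 10.2% were higher at 72 h than at 24 h and 0.911% lower. Their median log2 difference was 0.35. Over all genes tested, 5.39% were higher and 12.8% lower, with a median of -0.025. In a list of 14 other long noncoding RNAs tested, 4 were higher and none was lower, with a median of 0.31. They were Firre (0.66 ± 0.17, edgeR adjusted p = 0.0310), Kcnq1ot1 (0.65 ± 0.14, 0.0160), Mir22hg, the host of miR-22 (0.50 ± 0.13, 0.0354), and Dleu2, a host of miR-15a and miR-16 (0.36 ± 0.09, 0.0307). The count was 3 without the pair of libraries that stood apart and 2 without air replicate 2 as well, and ranged from 0 to 5 over all alternatives. Relative to air, Mir155hg, the host of the inflammatory miR-155, was the gene of that list called at 72 h (1.61 ± 0.36, edgeR adjusted p = 0.0424), at 1.23 CPM against 0.401 CPM in air, and it passed in 8 of 20 alternatives. Of 8 other Snhg genes tested, Snhg11 rose, with 3.66 CPM at 72 h against 1.36 CPM at 24 h (1.43 ± 0.20, edgeR adjusted p = 0.00664).

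Paraspeckles and nuclear speckles are the bodies where Neat1 and Malat1 reside. In the edgeR fit of all 9 libraries, the called genes for paraspeckle proteins were all lower at 72 h than at 24 h. Genes for proteins of nuclear speckles were called in both directions. Of 17 genes for paraspeckle proteins, 0 were higher and 5 lower at 72 h than at 24 h, with a median of -0.17. Of all genes tested, 5.39% were higher and 12.8% lower. Taf15, an RNA-binding protein of the FET family, was lower by 0.36 ± 0.06 on the log2 scale (edgeR adjusted p = 0.00741). Nudt21, a subunit of cleavage factor Im, was at -0.30 ± 0.05 (0.0106), Nono at -0.27 ± 0.06 (0.0221) and Sfpq at -0.23 ± 0.06 (0.0264). The count of lower genes was 2 without the pair of libraries that stood apart, 1 without air replicate 2 as well, and 2, beside 1 higher, under upper quartile scaling. Beside the same shares of all genes, 5 of 16 genes for speckle proteins were higher and 3 lower. Srrm2 (0.47 ± 0.10, edgeR adjusted p = 0.0184) and Son (0.34 ± 0.08, 0.0222), which form the core of the speckles, were higher, and the splicing factors Srsf1 (-0.30 ± 0.06, 0.0182) and Srsf3 (-0.30 ± 0.07, 0.0245) were lower. Without the pair that stood apart, 3 were higher and 2 lower, and without air replicate 2 as well, 1 was higher and 0 lower.

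The machinery that builds snoRNAs into particles was lower at 72 h than at 24 h. Of 18 genes for core and assembly proteins, 14 were lower than at 24 h and 0 higher, with a median log2 difference of -0.44. Of all genes tested, 12.8% were lower and 5.39% higher. Nhp2 and Nop10, core proteins of H/ACA particles, were at -0.68 ± 0.07 (edgeR adjusted p = 0.00366) and -0.62 ± 0.08 (0.00520). Fbl, the methyltransferase of C/D particles, was at -0.66 ± 0.09 (0.00595), and Ruvbl1, an assembly ATPase, was at -0.68 ± 0.09 (0.00579). Fbl averaged 55.9 CPM at 72 h, 88.5 CPM at 24 h and 74.5 CPM in air. The count of lower genes was 11 without the pair that stood apart and 10 without air replicate 2 as well, and lay between 6 and 15 over all alternatives. Compared with air at 72 h, 3.77% of all genes tested were lower and 1.71% higher. Of the 18, 5 were lower and 0 higher in that comparison. That count was 4 without the pair, 1 without air replicate 2 as well, and 0 with the replicate block or without any 1 of the 72 h libraries, and it lay between 0 and 9 over all alternatives.

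At 72 h relative to 24 h, 12.8% of all genes tested were lower and 5.39% higher. Of 16 genes of nonsense-mediated decay, 3 were lower and 1 higher in that comparison. The 3 were the exon junction genes Rbm8a (-0.49 ± 0.07, edgeR adjusted p = 0.00617), Eif4a3 (-0.49 ± 0.07, 0.00695) and Magoh (-0.47 ± 0.08, 0.00795), and the other was Smg1, the kinase of Upf1 (0.41 ± 0.09, 0.0168). Without the pair that stood apart the counts were 3 lower and 2 higher, and without air replicate 2 as well they were 3 lower and 0 higher. At 72 h relative to air, 3.77% of all genes tested were lower and 1.71% higher. The same 4 genes of nonsense-mediated decay passed the threshold there, in the same directions, but these calls were lost in most alternatives. Over them the counts there lay between 0 and 3 lower and between 0 and 2 higher, with 2 lower and 1 higher without the pair, and 0 of either without air replicate 2 as well, with the replicate block, or without any 1 of the 72 h libraries.

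**Figure D4:**
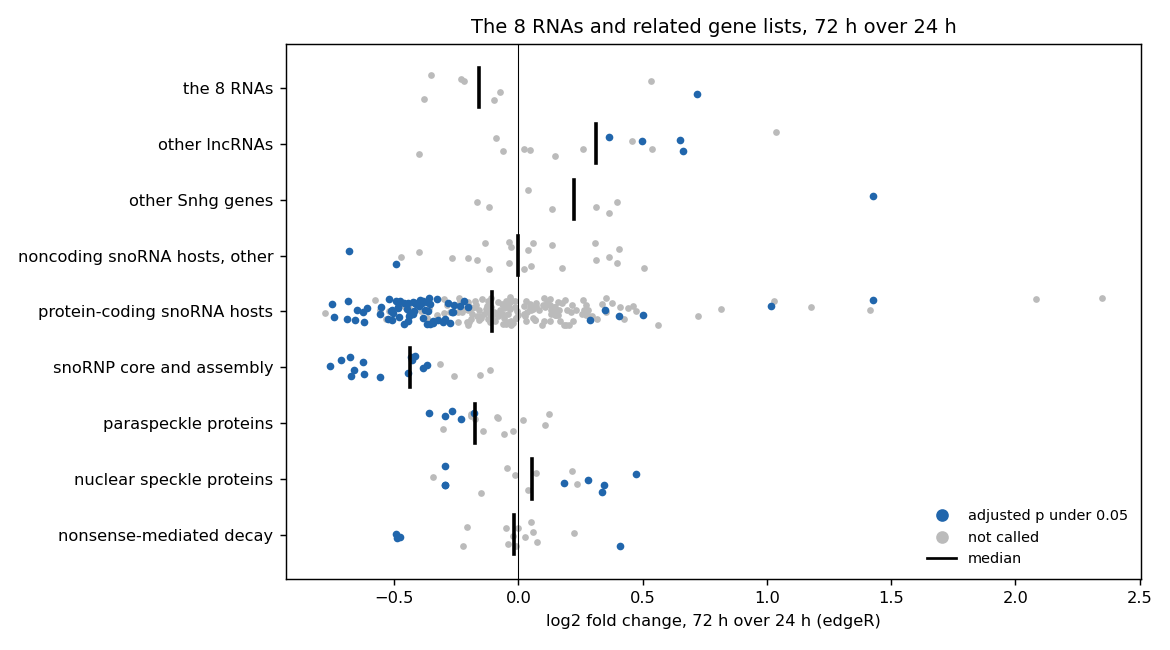
Log2 fold change at 72 h over 24 h for every tested gene of the 8 RNAs and of the related lists, from the edgeR fit; a point is a gene, blue where the adjusted p was under 0.05, and the black line is the median of the list. The snoRNA particle list, snoRNP core and assembly, has all 18 genes left of 0 with a median of -0.44, and the other long noncoding RNAs have a median of 0.31.

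Other snoRNA hosts and the neighbours of the 8 genes were tested with them. At 72 h relative to 24 h, 12.8% of all genes tested were lower and 5.39% higher. Of 24 other noncoding hosts tested, 2 were lower at 72 h than at 24 h, AI506816 (-0.68 ± 0.09, edgeR adjusted p = 0.00586) and Cct6a (-0.49 ± 0.07, 0.00635), the gene of a chaperonin subunit that GENCODE M21 files as a processed transcript. Of 234 protein-coding hosts, 61 were lower and 6 higher, with a median of -0.11, and under upper quartile scaling 40 were lower and 16 higher. The counts were 51 lower and 17 higher without the pair that stood apart, and 36 lower and 8 higher without air replicate 2 as well. Among 36 genes starting within 100 kb of the 8, 8 were lower and 2 higher. These counts were 5 lower and 1 higher without the pair that stood apart, 1 lower and 1 higher without air replicate 2 as well, 4 lower and 2 higher under upper quartile scaling, and 0 of either without 72 h replicate 2. Over all alternatives they lay between 0 and 8 lower and between 0 and 2 higher. Near Snhg12, Taf12 (-0.39 ± 0.06, edgeR adjusted p = 0.00833), a subunit of TFIID, and Rcc1 (-0.52 ± 0.09, 0.00923), the exchange factor of Ran, were lower. Near Snhg1, Polr2g, an RNA polymerase II subunit, was lower (-0.39 ± 0.07, 0.0115). At 24 h relative to air, none of the genes in any of these lists was called in the edgeR fit of all 9 libraries.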

How the data were processed

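Total RNA of lung macrophages was sequenced from 9 libraries after preparation with a stranded kit, per the labels' protocols. The submitters' processing notes name Trimmomatic 0.39, FastQC, Salmon, DESeq2 and the build GRCm38.p6. The authors deposited 1 table of estimated counts by gene. Of its values, zeros included, 80.5% are whole numbers within 1e-09. Library totals were unequal, and no sign of scaling between libraries was seen. The estimated counts were rounded for the count tests. Of 54281 identifiers, 54107 matched GENCODE M21, which gave symbols, lengths and coordinates. No column was left unused.

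edgeR 4.0.16 (R 4.3.3) was run as a quasi-likelihood fit of all 9 libraries, with TMM scaling and its filter on low counts, and p-values were adjusted by Benjamini-Hochberg over 15713 genes at a threshold of 0.05. CPM use TMM library sizes. Alternatives were DESeq2 1.42.0, limma 3.58.1 with voom, other scalings and filters, the replicate block, and libraries left out. The genes and lists were chosen with earlier results of these data known. From each list up to 4 called genes with the smallest p were named in each comparison, or the 2 most abundant where none was called. All libraries of a group differed by more than sampling noise. The p-values set the difference between groups against the spread between these libraries. The fit was tested on simulated data.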

Additional observations from a re-analysis of the deposited data

Results flagged for a closer look

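Neat1 was singled out because its level differed between the 2 times after ozone in a test of that difference itself. The log2 difference at 72 h relative to 24 h was 0.72, with 1268, 1239 and 1170.1 CPM at 72 h and 689, 656 and 889 CPM at 24 h, and it was higher in 3 of 3 libraries (edgeR adjusted p = 0.00882). In groups of 3, single libraries were not tested for standing apart.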

How the results depend on the processing

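Over 20 alternatives the Neat1 difference between 72 h and 24 h passed the threshold in 19, with log2 values of 0.62 to 0.89. The number of the 8 genes called in that comparison ranged from 0 to 2 when 1 library was left out, and DESeq2 called 2, Malat1 and Neat1. At 24 h relative to air DESeq2 called 1, Neat1. In the joint test over the 3 groups the number called was 1, ranging from 0 to 1 when 1 library was left out (it was lost without air replicate 2, 24 h replicate 1 or any 72 h replicate), 0 without the pair of libraries that stood apart and air replicate 2, and 2 by DESeq2.

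Whether replicate numbers pair the libraries could not be decided. The correlations of same-numbered deviations from the group means lay between -0.61 and 0.48. The libraries that stood apart weigh on the means of their groups, and so on these correlations. With the replicate block the Neat1 difference was 0.72 (edgeR adjusted p = 0.0335), and the joint test called 0 of the 8.

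Signs changed only for values that were not called, in 30 of 480 single-gene alternatives, 14 of them with 1 library left out. Without the pair that stood apart, the log2 difference at 24 h relative to air was -0.18 for Gas5, -0.024 for Snhg1 and -0.029 for Epb41l4aos, and without air replicate 2 as well it was -0.22 for Gas5, -0.11 for Snhg1, -0.029 for Snhg6, -0.023 for Snhg8 and -0.054 for Epb41l4aos. In the same order of settings the difference at 72 h relative to 24 h was 0.10 and 0.094 for Gas5 and 0.033 and 0.025 for Snhg12. At 72 h relative to air Gas5 was at 0.0099 with DESeq2 size factors, 0.044 with upper quartile scaling, 0.037 with a filter of 1 CPM and 0.012 in a fit of the 6 libraries compared. With 1 library left out, the ranges that crossed 0 at 24 h relative to air were -0.18 to 0.19 for Gas5, -0.025 to 0.19 for Snhg1 and -0.080 to 0.14 for Epb41l4aos. At 72 h relative to air they were -0.051 to 0.26 for Malat1, -0.11 to 0.043 for Gas5 and -0.42 to 0.028 for Snhg8, and at 72 h relative to 24 h they were -0.19 to 0.19 for Gas5 and -0.18 to 0.11 for Snhg12. The cause was not tested.

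Over all genes, the number called across alternatives was 0 to 582 at 24 h relative to air, 7 to 1889 at 72 h relative to air and 340 to 3564 at 72 h relative to 24 h. Upper quartile scaling gave 1163 higher and 1302 lower genes at 72 h relative to 24 h, against 847 and 2008 with TMM, and 192 higher and 107 lower at 72 h relative to air, against 268 and 592. DESeq2 size factors gave 224 higher and 282 lower genes at 72 h relative to air. The counts of the gene lists under these alternatives were added after seeing the data. At 72 h relative to 24 h they were 1 to 7 lower for paraspeckle proteins, 0 to 6 higher and 0 to 4 lower for speckle proteins, 2 to 3 lower for nonsense-mediated decay, and 10 to 81 lower for protein-coding hosts. Depth limits Epb41l4aos most, with a counting error of 10.7% at its lowest count of 88, against 0.564% for Neat1.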

Other observations

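Protein-coding snoRNA hosts are genes whose span holds a whole snoRNA gene on the same strand. Those named here were picked as called genes with the smallest p at 72 h relative to 24 h. They do not speak for the list, where 167 of 234 genes were not called, 61 were lower and 6 higher, with a median of -0.11. Ranbp1, a partner of the Ran GTPase, had 49.5, 47.5 and 54.8 CPM at 72 h, 83.2, 84.0 and 77.0 CPM at 24 h, and 62.1, 62.8 and 68.6 CPM in air (log2 difference of 72 h to 24 h -0.69 ± 0.07, edgeR adjusted p = 0.00372). Its 3 groups did not overlap. Nap1l1, a histone chaperone, averaged 335 CPM at 72 h, 483 CPM at 24 h and 414 CPM in air (-0.53 ± 0.06, edgeR adjusted p = 0.00406). Pola1, the catalytic subunit of DNA polymerase alpha, averaged 29.4 CPM at 72 h, 45.2 CPM at 24 h and 33.1 CPM in air (-0.62 ± 0.07, edgeR adjusted p = 0.00433). These differences passed the threshold in 20 of 20 alternatives.

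Near Malat1 and Neat1, the coding gene Frmd8 had 68.9, 67.0 and 64.2 CPM at 72 h, 75.9, 83.8 and 81.1 CPM at 24 h, and 69.2, 75.9 and 77.8 CPM in air (log2 difference of 72 h to 24 h -0.27 ± 0.06, edgeR adjusted p = 0.0231). Slc25a45, a mitochondrial carrier gene, had 43.5, 44.1 and 44.7 CPM at 72 h, 38.2, 39.0 and 41.0 CPM at 24 h, and 42.0, 42.6 and 42.8 CPM in air (0.16 ± 0.05, edgeR adjusted p = 0.0410). Both genes were named after their values were seen. Gm27505, a short RNA inside the Neat1 gene on the same strand, had 352, 398 and 318 counts at 72 h, 0, 109 and 213 counts at 24 h, and 377, 0 and 0 counts in air. Its libraries varied within a group far more than Neat1 did. Reads of Gm27505 also match Neat1, and how the counting divided them was not tested. Rn7s1, a 7SL RNA of the signal recognition particle, had 2.35, 5.91 and 8.54 CPM at 72 h, 12.3, 5.40 and 16.6 CPM at 24 h, and 10.5, 13.7 and 8.78 CPM in air, with no call (edgeR adjusted p = 0.230 at 72 h relative to 24 h).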
